A study of Mus musculus with 18 samples.

Results

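Imprinted genes were followed in T cells of the C57BL/6 mouse with and without the histone methyltransferase G9a, which is encoded by Ehmt2. The 37 genes were taken by name from a list of known mouse imprinted genes. No measured value entered the rule, but earlier results of these data were known when it was set. All 37 were found among the 23234 gene symbols of the RNA table. RNA was measured in 10 libraries from spleen and lymph nodes, taken after 4 weeks of expansion in a host poor in lymphocytes. There were 4 libraries of G9a knockout cells carrying both coreceptors (KO CD4+CD8+), 2 of knockout cells with CD8 alone (KO CD4-CD8+) and 4 of wild-type cells with CD8 alone (WT CD4-CD8+). H3K9me3, the trimethyl mark on lysine 9 of histone H3, was mapped in 4 further libraries of splenic CD8+ T cells grown in culture with antibodies to CD3 and CD28, 2 from Ehmt2+/+ (WT 1 and WT 2) and 2 from Ehmt2-/- (KO 1 and KO 2). The chromatin therefore came from other cells than the RNA. KO CD4+CD8+ and WT differ in G9a and in CD4, which cannot be told apart in that comparison, and the 2 comparisons with WT share its 4 libraries. The sources used here do not name the promoter that drove the deletion or the animals behind each library, so a p-value speaks only of the spread among these libraries, part of which may be technical.

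Imprinted genes are transcribed from the maternal or the paternal chromosome only, in some or all tissues. The choice is set by DNA methylation laid down in the egg or sperm at imprinting control regions, many of which lie at the promoters of paternally expressed genes or long noncoding RNAs. The methylated copy is bound by the zinc finger protein Zfp57, which recruits Trim28 and the H3K9 methyltransferase Setdb1, and G9a is known for a part in silencing at several imprinted genes in the placenta. The domains hold both coding genes and noncoding RNAs: Airn runs against Igf2r, Kcnq1ot1 runs inside and against Kcnq1, and Meg3, Rian and Mirg form a noncoding cluster beside Dlk1. Neither the RNA values nor the peaks tell the parental copies apart, so the data give total levels and not imprinting itself.

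Promoters of some genes named in the results below are shown first. Each line gives the 250 bases before a start site as RefSeq annotates it on GRCm38.p6, read along the gene's own strand, with CpG dinucleotides, the sites of DNA methylation, in capitals. Of the 37 genes, 30 had a promoter in that table (47 promoters in all). Peg3, Mest, Gnas and Igf2r are shown because each had an H3K9me3 peak near a start in both wild-type lists and in neither knockout list, Airn because it was the one gene called by the RNA test, and Cd81 because it was expressed with no peak near its start.
Peg3 (chr7:6730420-6730669, minus strand): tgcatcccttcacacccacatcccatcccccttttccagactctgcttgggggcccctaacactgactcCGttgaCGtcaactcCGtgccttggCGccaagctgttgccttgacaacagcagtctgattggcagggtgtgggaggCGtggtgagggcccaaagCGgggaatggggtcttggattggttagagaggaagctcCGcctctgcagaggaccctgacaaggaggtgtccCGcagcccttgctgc
Mest (chr6:30737800-30738049, plus strand): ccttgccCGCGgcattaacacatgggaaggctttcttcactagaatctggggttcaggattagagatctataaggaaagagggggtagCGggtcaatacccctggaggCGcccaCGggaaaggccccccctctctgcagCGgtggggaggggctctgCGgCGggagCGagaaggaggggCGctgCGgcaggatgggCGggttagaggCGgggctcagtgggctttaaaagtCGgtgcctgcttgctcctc
Gnas (chr2:174329756-174330005, plus strand): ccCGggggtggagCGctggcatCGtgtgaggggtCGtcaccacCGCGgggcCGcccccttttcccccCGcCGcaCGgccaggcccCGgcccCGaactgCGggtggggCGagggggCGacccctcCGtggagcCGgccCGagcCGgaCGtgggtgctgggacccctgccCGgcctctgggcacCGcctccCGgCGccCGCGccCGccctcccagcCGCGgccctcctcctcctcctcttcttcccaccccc
Igf2r (chr17:12769707-12769956, minus strand): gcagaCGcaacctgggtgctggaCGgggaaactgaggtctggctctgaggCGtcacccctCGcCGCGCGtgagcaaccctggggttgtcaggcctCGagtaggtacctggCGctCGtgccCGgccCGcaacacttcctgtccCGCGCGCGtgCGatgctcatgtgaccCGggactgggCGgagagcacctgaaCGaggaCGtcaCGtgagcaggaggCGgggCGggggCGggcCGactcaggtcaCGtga
Airn (chr17:12741061-12741310, plus strand): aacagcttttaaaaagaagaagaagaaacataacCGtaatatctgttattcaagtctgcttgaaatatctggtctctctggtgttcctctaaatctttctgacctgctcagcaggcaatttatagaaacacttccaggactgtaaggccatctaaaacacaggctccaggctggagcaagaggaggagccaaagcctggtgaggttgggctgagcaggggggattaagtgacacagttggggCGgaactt
Cd81 (chr7:143052500-143052749, plus strand): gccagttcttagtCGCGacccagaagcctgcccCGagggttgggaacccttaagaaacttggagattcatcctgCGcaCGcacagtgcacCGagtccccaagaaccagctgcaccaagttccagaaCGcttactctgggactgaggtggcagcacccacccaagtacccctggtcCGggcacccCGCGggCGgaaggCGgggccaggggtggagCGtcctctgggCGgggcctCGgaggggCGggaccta
These windows held 8 CpG in Peg3, 14 in Mest, 29 in Gnas, 27 in Igf2r, 2 in Airn and 16 in Cd81, against a median of 10 over the 47 promoters of imprinted genes and of 6 over all 32851 promoters of the table. Mest has 2 and Gnas 3 further annotated starts. The Gnas start with the most CpG is printed (the others held 14, 21 and 22), and for Mest the first of 2 that tie at 14 (the other held 7). For these genes the printed count is thus the highest by choice. Slc38a4 also had near peaks in both wild-type lists and in neither knockout list; its 3 promoters held 3 to 5 CpG and are not printed. TGCCGC, the letters that Zfp57 is known to read when its CpG is methylated, was searched on both strands. It stood in 7 of the 47 promoters (14.9%) and in 8.68% of all promoters, and the 6 genes that had it were Meg3, Mest, Nap1l5, Osbpl5, Plagl1 and Zim1. The Mest window above held 2 matches. The peaks are on mm9, so they were tied to a gene by the deposited distance and not placed on these sequences. In a gene with several starts, the printed window need not be the one near a peak.

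FPKM, a fragment count scaled by transcript length and by the size of the library, summed over all genes to 441903 to 504013 in 8 libraries but to 292872 and 183632 in KO CD4+CD8+ replicates 3 and 4, and those 2 libraries stood apart in several results below. FPKM holds no read counts, so the depth is unknown. Ehmt2 itself was at 7.28 to 23.6 FPKM in KO CD4+CD8+, 12.6 to 13.6 in KO CD4-CD8+ and 18.1 to 42.6 in WT; a whole-gene FPKM does not show whether the deleted part is present. All 7 T cell markers were detected, with sums of 1426 to 5717 FPKM. The titles number the libraries in 2 ranges, 34 to 37 (replicates 1 and 2 of KO CD4+CD8+ and WT) and 738 to 741 (all others). Macrophage markers summed to 61.1 to 172 FPKM in the first range and 6.22 to 26.1 in the second, and red cell markers to 468 to 1214 and 1.31 to 57.4. The sources used here do not say what the ranges stand for.

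Of the 37 imprinted genes, 9 were expressed, taken as 0.5 FPKM or more on average over the 10 libraries. This is 24.3% of the list, against 48% of all symbols. Gnas, which encodes the stimulatory G protein alpha subunit, had a mean of 489.7 FPKM and lay at the 99.6th percentile of all symbols. Next came H13, the signal peptide peptidase (37.3), Osbpl5, an oxysterol-binding protein (27.0), the ubiquitin ligase gene Ube3a (26.0) and Tssc4 (20.9). Lower were the tetraspanin gene Cd81 (11.1), Igf2r, the receptor for mannose 6-phosphate and IGF2 (10.3), Impact, a regulator of translation (6.39), and the noncoding RNA Airn (2.64). The same number of genes passed at a mean of 1 FPKM. The spread over libraries was wide for Cd81 (1.73 to 34.2 FPKM) and Igf2r (0.847 to 32.9). Of the genes on the list, 6 of the 17 maternally expressed and 2 of the 19 paternally expressed ones passed, beside Gnas, whose transcripts differ in parental origin. Several of those that passed (Cd81, Tssc4, Osbpl5 and, outside neurons, Ube3a) are known to be expressed from both chromosomes in most adult tissues.

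**Figure D1:**
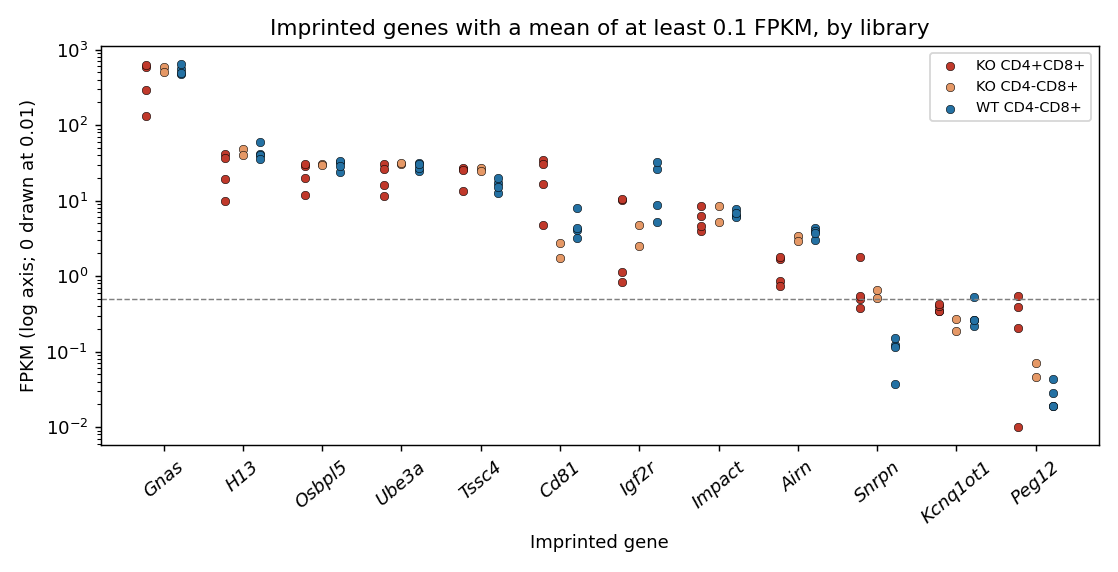
FPKM of the 12 imprinted genes averaging 0.1 or more, on a log axis, with 1 point for each of the 10 libraries and the expression threshold of 0.5 FPKM as a dashed line. Gnas lies highest, and for Snrpn the points of all 6 knockout libraries lie above those of WT.

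The other 28 genes lay under the threshold, and Kcnq1 and Mest were listed at 0 in every library. After Snrpn (mean 0.480 FPKM) and Kcnq1ot1 (0.324), no mean was above 0.135, that of Peg12. The silent genes include the growth factor gene Igf2 and its noncoding neighbour H19, the cell cycle inhibitor Cdkn1c, the noncoding RNAs Meg3, Rian and Mirg with Dlk1, and Peg3, Peg10, Sgce, Plagl1, Grb10, Nnat, Nap1l5, Ndn, Magel2, Mkrn3, Zim1, Usp29, Phlda2, Slc22a18, Slc38a4 and Dcn. Summed, the 28 genes gave 1.91, 2.48, 2.56 and 3.94 FPKM in KO CD4+CD8+, 1.21 to 1.28 in KO CD4-CD8+ and 0.529 to 1.15 in WT. Of the 26 that were above 0 somewhere, 17 had their highest value in KO CD4+CD8+ replicate 3 or 4. The share of all low genes with this order was not counted, so it cannot be called a trait of imprinted genes. Among low genes of the other lists, most, such as Asb4, Slc22a3 and Ctcfl, were also highest there. Others, such as Zim3 and Begain, were not. Meg3 was at 0.112, 0.0102, 0.105 and 0.310 FPKM in KO CD4+CD8+, 0.0424 and 0.00381 in KO CD4-CD8+ and at most 0.00411 in WT. Dlk1, which encodes a Notch-like surface protein, reached 0.328 in KO CD4+CD8+ replicate 4 and at most 0.0298 in every library but replicates 3 and 4 of that group. The 9 stromal markers, among them collagen genes, moved the same way at the same low level: they summed to 0.519 to 1.497 FPKM in KO CD4+CD8+, 0.0411 to 0.128 in KO CD4-CD8+ and 0.0874 to 0.197 in WT. Their part in these traces was not tested.

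The Igf2r domain held the 1 imprinted gene that passed the test. Airn was at 0.860, 0.748, 1.69 and 1.77 FPKM in KO CD4+CD8+, 3.36 and 2.91 in KO CD4-CD8+ and 2.99, 4.34, 4.01 and 3.69 in WT. In FPKM as deposited, all 4 KO CD4+CD8+ libraries lay below all others. In bulk samples, fewer cells that hold a transcript and less of it in each cell cannot be told apart. Means were 1.27 ± 0.536 (SD, n = 4) and 3.75 ± 0.576 (SD, n = 4) FPKM in KO CD4+CD8+ and WT. On the scale of log2(FPKM + 1), which understates the change of low genes, Airn fell by 1.09 ± 0.241 (SE) in KO CD4+CD8+ against WT (adjusted p = 0.0202, limma over 11162 genes). It was the 1 called gene of the 9, where 7.89% of all tested genes were called in this comparison, 2.86% higher and 5.03% lower; 1 of 9 is close to that background. Airn was among the 13.1% of tested genes whose 4 KO CD4+CD8+ values all lay below WT. The call was lost without WT replicate 3 (adjusted p = 0.0715) or 4 (0.0602). It was also lost after median-ratio scaling, which left Airn at -0.73 (limma adjusted p = 0.157). That scaling brought the median of all genes in this comparison from -0.38 to -0.01. Its divisor was 0.455 for KO CD4+CD8+ replicate 4 and 1.079 to 1.155 for WT. Once scaled, Airn in replicate 4 no longer lay below WT.

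Igf2r itself was at 10.05, 10.7, 1.12 and 0.847 FPKM in KO CD4+CD8+, 2.49 and 4.72 in KO CD4-CD8+ and 26.2, 32.9, 8.76 and 5.27 in WT. KO CD4+CD8+ replicates 1 and 2 lay below WT replicates 1 and 2 but above WT replicates 3 and 4, so the groups overlap. Within each title range every knockout library lay below every wild-type library. KO CD4+CD8+ averaged 10.4 against 29.5 FPKM in titles 34 to 37, a ratio of 0.351, and 0.984 against 7.01 in titles 738 to 741, a ratio of 0.140. Without regard to the ranges, the difference was -1.70 ± 0.703 (SE) on the log2 scale and was not called (adjusted p = 0.150). With the replicate number as a block, whose numbers matched across the 2 groups, the same difference was called (limma adjusted p = 0.00280), as it was with the title range as a term (0.00132). Within titles 738 to 741 alone it was -1.98 (adjusted p = 0.00806) and within 34 to 37 alone -1.42 (0.0901). Between the title ranges, the libraries high in Igf2r are those high in macrophage markers. Within titles 34 to 37 the order was not the same. There the markers summed to as much as 172 FPKM in KO CD4+CD8+ and at most 124 in WT, where Igf2r was higher. Within titles 738 to 741 they summed to 12.5 FPKM or more in each WT library and to less in every knockout library. Igf2r was higher in WT there too. The part of macrophages was not tested. In KO CD4-CD8+ the difference from WT was -1.78 ± 0.861 (SE), with both libraries below all WT libraries but no call (adjusted p = 0.938). Airn starts inside Igf2r on the other strand, and the library kit does not mark strand, so reads from the stretch they share cannot be told apart. Within KO CD4+CD8+, Airn was lower in replicates 1 and 2 and Igf2r in replicates 3 and 4.

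**Figure D2:**
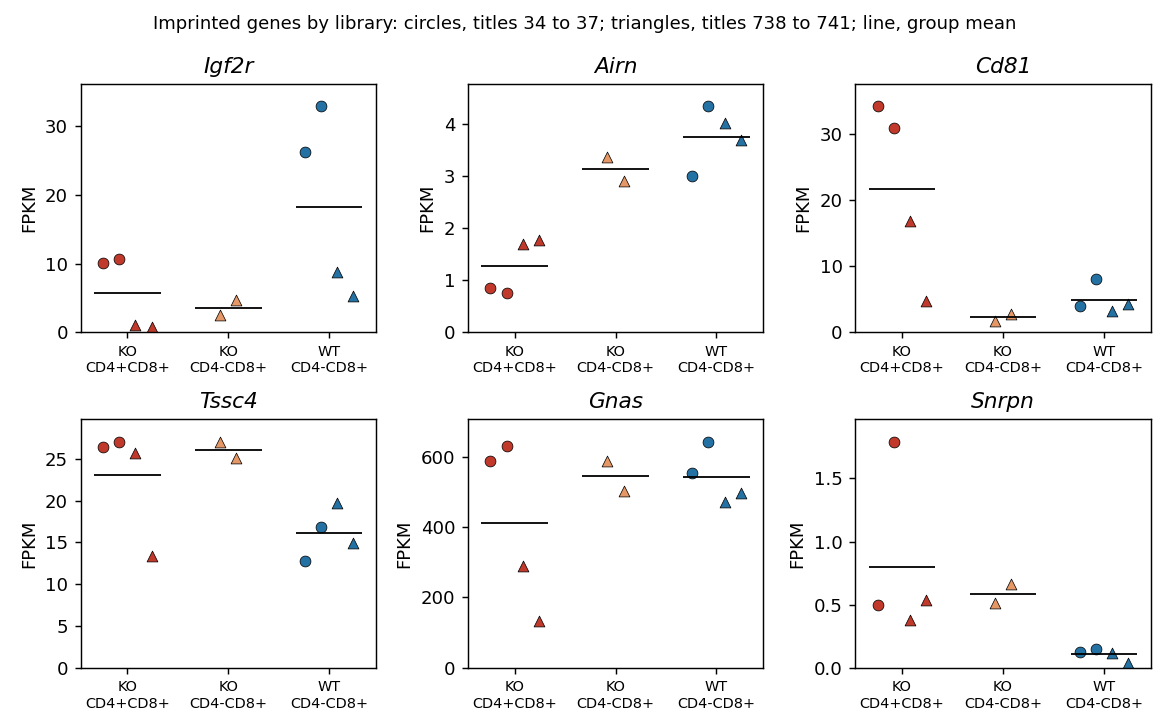
FPKM in each library of 6 imprinted genes by group, with circles for titles 34 to 37, triangles for titles 738 to 741 and a line at the group mean. Airn lies lowest in the 4 KO CD4+CD8+ libraries, Cd81 highest in 3 of them, and Snrpn is above WT in all 6 knockout libraries.

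The Kcnq1 domain holds 8 of the genes, of which Cd81, Tssc4 and Osbpl5 were expressed. Cd81 encodes a surface protein that lymphocytes use in coreceptor complexes. It was at 34.2, 30.8, 16.8 and 4.81 FPKM in KO CD4+CD8+, 1.73 and 2.77 in KO CD4-CD8+ and 4.04, 7.99, 3.16 and 4.28 in WT. The first 3 KO CD4+CD8+ libraries lay above every other library, and replicate 4 fell within the WT range. Group means were 21.6 ± 13.5 (SD, n = 4), 2.25 ± 0.731 (SD, n = 2) and 4.87 ± 2.14 (SD, n = 4) FPKM. Cd81 was 1.71 ± 0.507 (SE) higher in KO CD4+CD8+ than in WT on the log2 scale, just short of the threshold (limma adjusted p = 0.0602), and 2.52 ± 0.621 (SE) higher than in KO CD4-CD8+ (adjusted p = 0.0591). The first difference was called with the replicate block (adjusted p = 0.00876), after median-ratio scaling (2.09, adjusted p = 0.00336), without KO CD4+CD8+ replicate 4 (2.27, 0.00654) and without WT replicate 2 (1.94, 0.0472). The second was called after the same scaling (2.95, adjusted p = 0.00473) and without KO CD4+CD8+ replicate 4 (3.08, 0.00957). Within the title ranges KO CD4+CD8+ averaged 5.41 and 2.90 times WT. B cell markers, from cells in which Cd81 is known to be abundant, summed to 21.2 to 54.4 FPKM in KO CD4+CD8+, 48.6 to 67.4 in KO CD4-CD8+ and 15.1 to 84.8 in WT, ranges that overlap. Macrophage markers summed to 6.22 to 172, 8.85 to 10.6 and 12.5 to 124 FPKM in the same groups. Their highest sum was in KO CD4+CD8+ replicate 1 and their lowest in replicate 3, both above every WT library in Cd81. The part of either cell type was not tested.

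Tssc4, a neighbour of Cd81, was at 26.4, 27.0, 25.7 and 13.3 FPKM in KO CD4+CD8+, 27.0 and 25.0 in KO CD4-CD8+ and 12.7, 16.9, 19.7 and 15.0 in WT. Apart from KO CD4+CD8+ replicate 4, the library with the lowest FPKM sum, every knockout value was above every WT value. The difference of KO CD4+CD8+ from WT was 0.46 ± 0.283 (SE; adjusted p = 0.288, limma) and that of KO CD4-CD8+ was 0.68 ± 0.347 (SE; adjusted p = 0.938). After median-ratio scaling the first was 0.89 and called (adjusted p = 0.00711), and without replicate 4 it was 0.70 (0.0403). Osbpl5 was at 12.0 to 30.6, 29.2 to 30.1 and 24.3 to 33.2 FPKM in the 3 groups, with a difference of -0.44 ± 0.306 (SE; adjusted p = 0.346) that went to -0.01 after scaling. Kcnq1ot1, the noncoding RNA that silences the domain on the paternal chromosome, was at 0.342 to 0.424 FPKM in KO CD4+CD8+, 0.187 to 0.268 in KO CD4-CD8+ and 0.216 to 0.528 in WT, and these ranges overlap between KO CD4+CD8+ and WT. Kcnq1 was listed at 0 throughout, while Cdkn1c, Phlda2 and Slc22a18 had means of 0.0938, 0.0642 and 0.0603 FPKM.

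The 4 other expressed genes showed one shared pattern, low values in KO CD4+CD8+ replicates 3 and 4. Gnas was at 587, 632, 290 and 133 FPKM in KO CD4+CD8+, 587 and 502 in KO CD4-CD8+ and 555, 643, 473 and 496 in WT. Replicates 1 and 2 of KO CD4+CD8+ were thus within the WT range, and replicates 3 and 4 below it. H13 followed the same order, with 41.9, 36.9, 19.2 and 9.96 FPKM in KO CD4+CD8+ against 35.8 to 60.2 in WT, as did Ube3a with 30.8, 26.1, 16.0 and 11.6 against 24.6 to 31.4. Impact was at 8.36, 6.32, 4.00 and 4.62 against 6.07 to 7.69. None of the 4 was called: the differences from WT were -0.64 ± 0.449 (SE) for Gnas, -0.86 ± 0.404 for H13, -0.49 ± 0.308 for Ube3a and -0.21 ± 0.273 for Impact, with limma adjusted p of 0.351, 0.193, 0.297 and 0.589. After scaling they were -0.19, -0.44, -0.07 and 0.17, so the direction of Impact turned. Leaving out KO CD4+CD8+ replicates 3 and 4 gave 0.18 for Gnas, 0.01 for Ube3a and 0.11 for Impact, while H13 was still lower at -0.14 (adjusted p = 0.721). In titles 738 to 741 alone, where those 2 libraries are the whole of KO CD4+CD8+, 6 of the 9 genes were called lower (Gnas, H13, Ube3a and Osbpl5 beside Airn and Igf2r), where 47.1% of all tested genes were called lower. In titles 34 to 37 alone none of the 9 was called, and 0.654% of all genes were.

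Snrpn, which encodes a splicing protein of the Prader-Willi domain and starts at its imprinting control region, was the one gene of the 37 with all 6 knockout libraries above all 4 WT libraries. It was at 0.495, 1.79, 0.375 and 0.538 FPKM in KO CD4+CD8+, 0.511 and 0.662 in KO CD4-CD8+ and 0.123, 0.153, 0.114 and 0.0371 in WT. Among the 13841 genes averaging 0.1 FPKM or more, 2.01% had this order, and 12 of the imprinted genes were at or above that mean. With a mean of 0.480 FPKM it missed the filter for testing. Tested without the filter, the difference of KO CD4+CD8+ from WT was 0.64 on the log2 scale (limma adjusted p = 0.125), and after median-ratio scaling 0.76 (0.0384), an alternative added after the data were seen. Its neighbours Ndn, Magel2 and Mkrn3 reached at most 0.109 FPKM in any library, and Peg12 was at 0.203, 0, 0.384 and 0.539 in KO CD4+CD8+, 0.0456 and 0.0702 in KO CD4-CD8+ and at most 0.0437 in WT. The nearby symbol Snurf did not show the order of Snrpn. Its values were 0, 0.820, 0 and 0 FPKM in KO CD4+CD8+, 0.0927 and 0 in KO CD4-CD8+ and at most 0.137 in WT.

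Counted over the 9 tested genes, KO CD4+CD8+ against WT gave 0 higher and 1 lower, KO CD4-CD8+ against WT gave none, and KO CD4+CD8+ against KO CD4-CD8+ gave none. All genes were called in 0.116% and 2.07% of cases in the last 2 comparisons. At an unadjusted p under 0.05 limma gave 3 of 9 (Airn, Cd81 and Igf2r), 0 of 9 and 2 of 9 (Airn and Cd81), beside 27.3%, 3.44% and 23.5% of all tested genes. The median difference of the 9 was -0.49, 0.01 and -0.44, beside -0.38, 0.11 and -0.43 over all 11162 genes. Scaling changed the balance of all calls from 319 higher and 562 lower to 1083 and 881 in KO CD4+CD8+ against WT, from 8 and 5 to 16 and 5 in KO CD4-CD8+ against WT, and from 47 and 184 to 293 and 321 between the knockout groups. After scaling, the imprinted genes called were Cd81 and Tssc4 in the first comparison, where 17.6% of all genes were called, and Cd81 in the last, where 5.50% were. With the replicate block the count in the first comparison was 3 of 9 (Cd81 higher, Airn and Igf2r lower), where 12.3% of all genes were called. In the last comparison a block on the title number, which those groups share, gave 5 of 9. The share of all genes in that fit is not given here. In KO CD4-CD8+ against WT, Cd81 and Igf2r lay below and Tssc4 above all WT libraries, orders that 11.1% and 21.1% of tested genes also showed.

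**Figure D3:**
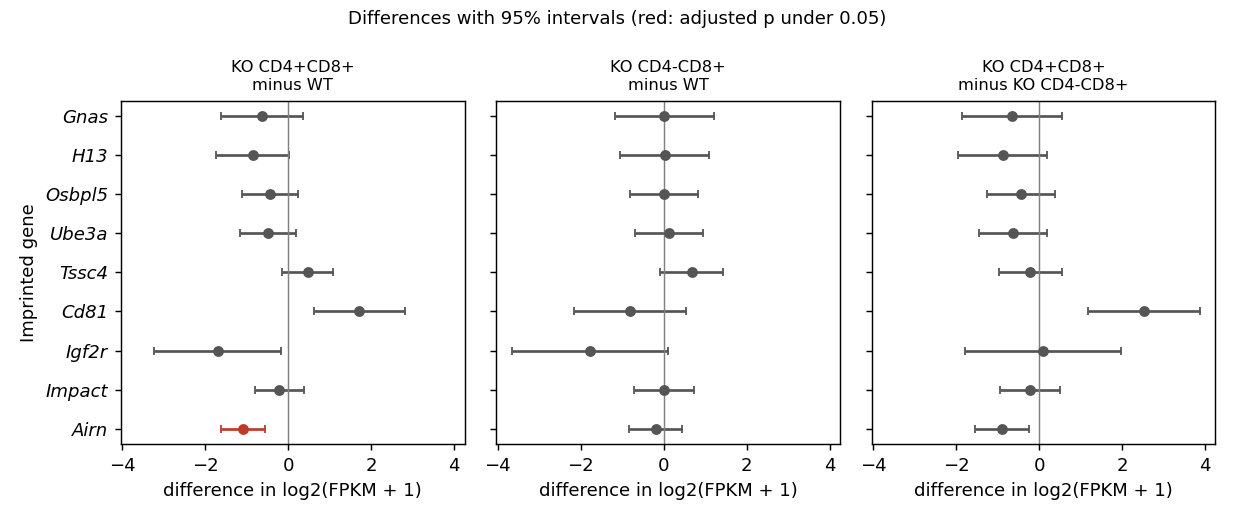
Differences of the 9 expressed imprinted genes in log2(FPKM + 1) for the 3 comparisons, with 95% intervals from limma. Airn in KO CD4+CD8+ against WT, in red, is the one difference past the threshold, and the interval of Cd81 lies above 0 in the first and last panels.

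Other genes of the pathway were counted from 2 further lists. Of 49 other known imprinted genes, 47 were in the table and 23 were tested. In KO CD4+CD8+ against WT, 1 was called higher and 2 lower, beside 2.86% and 5.03% of all genes. Between the knockout groups 2 were called lower, beside 1.65% of all genes. In KO CD4+CD8+ against WT, Tspan32, a tetraspanin gene of the Kcnq1 domain, was higher by 1.27 ± 0.312 (SE; limma adjusted p = 0.0301), and Tnfrsf26, a TNF receptor superfamily gene at the far end of that domain, fell by 1.88 ± 0.346 (SE; adjusted p = 0.00838). The other called gene, Herc3, whose intron holds Nap1l5, fell by 1.42 ± 0.362 (SE; adjusted p = 0.0346). Tnfrsf26 was also lower in KO CD4+CD8+ than in KO CD4-CD8+ (-1.97 ± 0.424, SE; adjusted p = 0.0392), with the other called gene there being Ddc (-2.03 ± 0.371, SE; adjusted p = 0.0178). None was called in KO CD4-CD8+ against WT (2 of 23 at an unadjusted p under 0.05, beside 3.44% of all genes). Tspan32 was higher there too, by 1.24 ± 0.382 (SE, limma adjusted p = 0.785), with both libraries above all WT libraries. Of the 17 genes of imprint maintenance and H3K9 methylation, 13 were tested and none was called in any of the 3 comparisons (3, 0 and 1 of 13 at an unadjusted p under 0.05, beside 27.3%, 3.44% and 23.5% of all genes).

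H3K9me3 was more frequent near the starts of imprinted genes in the wild-type lists than in the knockout lists. A peak centre lay within 2 kb of an annotated start of 19 of the 37 genes in WT 1 (51.4%), 9 in WT 2 (24.3%), 6 in KO 1 (16.2%) and 3 in KO 2 (8.11%). The same held for 8.50%, 3.21%, 5.08% and 6.56% of all 23234 symbols. The lists held 85960, 23304, 111149 and 154997 peaks, so the list with most peaks had the fewest imprinted genes. Taking the 23304 highest-scoring peaks of each list left 14, 9, 1 and 1 of the imprinted genes and 3.74%, 3.21%, 1.54% and 1.08% of all symbols. Libraries numbered 2 against 2, for which the smallest exact two-sided p is 0.333, and no test was made. The lists differed in kind beyond these genes: peaks that the authors annotated as CpG islands numbered 242, 54, 6 and 0, and peaks near any start were 2.71%, 3.67%, 1.29% and 1.22% of their lists. The part of that difference in the counts of imprinted genes was not tested.

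**Figure D4:**
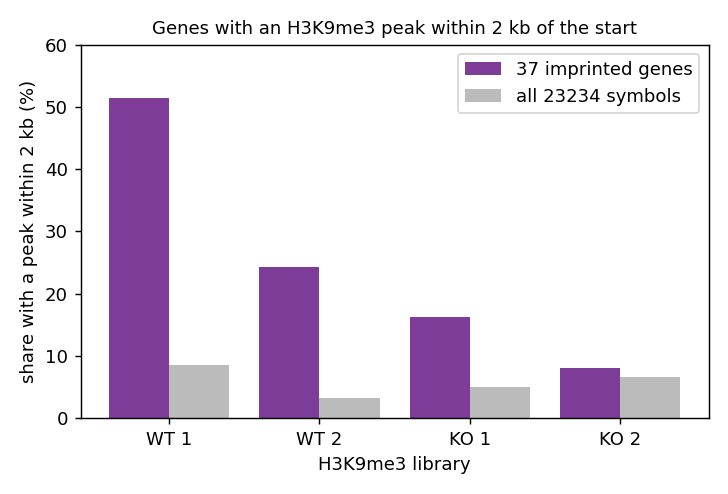
Share of the 37 imprinted genes and of all 23234 symbols with an H3K9me3 peak within 2 kb of an annotated start, in percent, for each of the 4 lists. The imprinted share falls from 51.4% in WT 1 to 8.11% in KO 2, while the share of all symbols stays between 3.21% and 8.50%.

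Genes with a near peak in both wild-type lists were Cdkn1c, Gnas, Igf2r, Impact, Magel2, Mest, Peg3 and Slc38a4, 8 of 37 (21.6%) against 2.23% of all symbols. For 5 of them, Gnas, Igf2r, Mest, Peg3 and Slc38a4, neither knockout list had one (13.5% against 0.792%). Both knockout lists had a near peak at 2 genes, Ndn and Zim1 (5.41% against 3.0%), and none had one in both knockout lists alone (1.13% of all symbols). Scores, which the authors deposited and whose scaling between lists is unknown, rank the peaks within a list. In WT 1, 5 of the 37 genes (13.5%, against 0.133% of all symbols) had a near peak in the top 1% of the list: Impact (187.2, rank 247 of 85960), Peg3 (179.1), Magel2 (171.0), Gnas (120.7) and Mest (119.0). In WT 2 the same 5 had scores of 96.3, 47.3, 31.6, 83.6 and 36.3. In KO 1 Impact had 14.1 and Magel2 13.1, with ranks of 23693 and 26684, and KO 2 had none of the 5. Of the 13 genes whose own promoter is known as maternally methylated, 9, 5, 1 and 1 had a near peak in WT 1, WT 2, KO 1 and KO 2. The KO 2 gene was Snrpn, and its peaks there (chr7:67240509-67241136 and chr7:67243573-67244073) lay near another annotated start than its WT 2 peak (chr7:67149994-67150494). A WT 1 peak beside that WT 2 peak (chr7:67148470-67149989, score 30.3) carries the gene name Snurf and is not counted.

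Overlap of regions, with at least 1 shared base, gives a second view, in which a peak of another list counts whatever its own distance to the start. The Peg3 region of WT 1 (chr7:6680119-6683758, mm9, 3639 bp, an intron) was overlapped by a KO 1 peak of 742 bp with a score of 21.8, centred 2753 bp from the start and thus outside the 2 kb, and by a peak of KO 2. The Gnas regions (chr2:174123304-174126187, an exon; chr2:174109660-174112953, an intron; chr2:174153412-174154313, an intron) and the Mest region (chr6:30685597-30689466, promoter) were overlapped by WT 2 but by no knockout peak. Of 23 near regions of imprinted genes in WT 1, 11 were overlapped in WT 2 (47.8%), 6 in KO 1 (26.1%) and 2 in KO 2 (8.70%), beside 25.0%, 27.5% and 28.6% of the near regions of all genes. The 11 shared by both wild-type lists included 5 that were overlapped in KO 1 (45.5%) and 1 in KO 2 (9.09%), beside 58.1% and 50.4% of the 534 such regions of all genes.

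**Figure D5:**
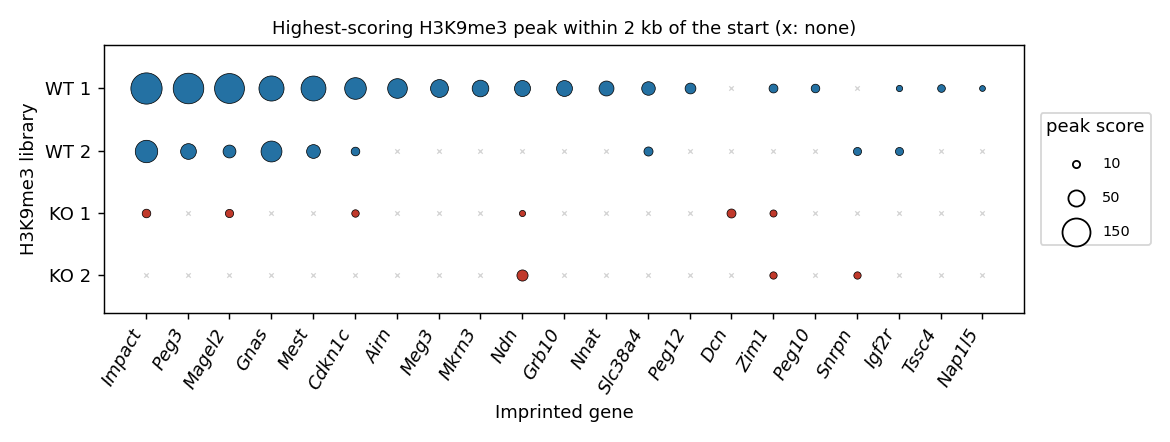
Highest-scoring H3K9me3 peak within 2 kb of the start for the 21 imprinted genes with one in any list, with the circle's area in proportion to the deposited score and a cross where a list had none. The rows of WT 1 and WT 2 are filled from Impact to Cdkn1c, and the knockout rows hold few and small circles.

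For the 9 expressed genes, near peaks were found at 5 in WT 1 (Airn, Gnas, Igf2r, Impact and Tssc4), 3 in WT 2 (Gnas, Igf2r and Impact), 1 in KO 1 (Impact) and 0 in KO 2. The Airn peak (chr17:12934421-12936144, mm9) lies in an intron at a CpG island, scored 74.1 and was in WT 1 alone. The peaks at the Igf2r promoter were weak, with scores of 7.57 in WT 1 and 12.6 in WT 2, each in the lower part of its list. Cd81 had 1 peak in each of the 4 lists, 7666 to 7913 bp upstream over repeat sequence (chr7:150229898-150231586 in WT 1), with scores of 49.2, 44.2, 26.7 and 16.8. Farther from Igf2r, overlapping peaks stood in all 4 lists at or beside a repeat of the ERVK class, centred 18892 to 19304 bp upstream, with scores of 42.2 and 22.1 in wild type and 46.1 and 54.1 in knockout. H13 had 1 peak (KO 2, 8938 bp from the start), Ube3a had no peak nearer than 17340 bp, and Osbpl5 had none. Over all distances, the 9 genes had 28, 13, 17 and 25 peaks and all 37 had 167, 51, 159 and 221, or 19.4, 21.9, 14.3 and 14.3 per 10000 peaks of each list. No peak was assigned to Rian, Mirg, Sgce, Phlda2, Slc22a18 or Osbpl5. The body of Kcnq1ot1 stood apart from the promoters, with 9, 8, 8 and 9 peaks in the 4 lists, all at least 41467 bp from its start. Its highest peak scored 155.8 in WT 1 (chr7:150409371-150416670), 28.4 in WT 2, 184.0 in KO 1 and 122.6 in KO 2, where it was among the top 155 of 154997.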

How the data were processed

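RNA values are FPKM that the authors deposited for 10 libraries. The submitters' processing notes name TopHat and Cufflinks and the build mm9; the sources used here give no versions, annotation or filters. Per the labels' protocols, small amounts of RNA were amplified with SMART-Seq v4 and tagmented, which does not mark strand. H3K9me3 peaks came from native ChIP, 1 deposited list per library, for which the processing notes name Bowtie, HOMER and again mm9; each peak has a deposited score, and its gene name, distance to a start and length are as the authors' file gives them. The inputs were not analysed here.

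From these values, the 23700 lines of the RNA table were summed to 23234 symbols (250 had repeated lines). Values were taken to log2(FPKM + 1) without scaling. The 11162 genes averaging 0.5 FPKM or more entered limma 3.58.1 (R 4.3.3, trended variance), in 1 fit of the 10 libraries that leaves 7 residual degrees of freedom. P-values were adjusted by Benjamini and Hochberg's method in each of 3 comparisons, with a threshold of 0.05. The fit was tested on simulated data. FPKM holds no counts, so no counting intervals were computed. Near a start means a peak centre within 2 kb.

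Groups follow the genotype and coreceptor labels. The imprinted genes and all lists were chosen with earlier results of these data known. Every imprinted gene is named; from the other lists, those called, at most 4 a comparison. KO CD4+CD8+ and WT share replicate numbers 1 to 4 in the sample descriptions. Libraries of the same number deviated together from their groups (correlations of 0.119, 0.293, 0.111 and 0.103 over genes). Libraries of unlike number within a title range did so about as much (0.0685, 0.147, 0.201 and 0.243). These values therefore give no ground for pairing by number beyond the range. A block on the number was fitted as an alternative, and in KO CD4+CD8+ against WT the blocked value stands beside each result it changes. Between the knockout groups the block was on the title number, and only its count and its value for Igf2r are given. Since replicates 1 and 2 and replicates 3 and 4 also fall in different title ranges, pairing and range cannot be told apart. Alternatives were the pseudocount (0.1), the filter, scaling, the libraries fitted, the title range, each library left out, the distance to a start and the number of peaks; 2 alternatives (without KO CD4+CD8+ replicates 3 and 4, and no filter with scaling) were added after seeing the data. Promoters are RefSeq's on GRCm38.p6.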

Additional observations from a re-analysis of the deposited data

Results flagged for a closer look

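Among groups of 4 libraries, 3 of 22 held 1 value far from the other 3 by Dixon's ratio for 4 values, where chance gives about 1 in 20. Tssc4 was lowest in KO CD4+CD8+ replicate 4, at 13.3 FPKM (ratio 0.902), the library with the lowest FPKM sum (183632). Snrpn was highest in KO CD4+CD8+ replicate 2, at 1.79 FPKM (ratio 0.885). Kcnq1ot1 was highest in WT replicate 1, at 0.528 FPKM (ratio 0.842). The difference between KO CD4+CD8+ and WT did not differ between the 2 title ranges at an adjusted p under 0.05 for any of the 9 expressed genes (limma interaction, 52 genes called over the table), and 4 of the 9 had an unadjusted p under 0.05 (Impact, Gnas, Ube3a and Osbpl5), beside 42.9% of all tested genes.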

How the results depend on the processing

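Each alternative changed 1 choice, except no filter and scaling together, which changed both. In KO CD4+CD8+ against WT the count of called imprinted genes, 1 in the report, was 0 with no filter and in titles 34 to 37 alone, 2 after median-ratio scaling, a common FPKM sum or without KO CD4+CD8+ replicates 3 and 4, 3 with the title range as a term or with no filter and scaling together, and 6 in titles 738 to 741 alone. With the replicate block on the description number it was 3. It was 0 to 3 when 1 library was left out: 0 without WT replicate 3 or 4, 2 without WT replicate 2 and 3 without KO CD4+CD8+ replicate 4. Without the filter Airn had an adjusted p of 0.0568 (limma). Over its alternatives the adjusted p ran from 0.00392 to 0.255 for Airn, 0.00261 to 0.179 for Cd81, 0.00132 to 0.729 for Igf2r and 0.00711 to 0.809 for Tssc4, and between the knockout groups from 0.00237 to 0.469 for Cd81.

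Between the knockout groups the count, 0 in the report, was 1 with a pseudocount of 0.1, either scaling, the title range or no filter with scaling, 2 without KO CD4+CD8+ replicates 3 and 4, and 7 in titles 738 to 741 alone. With the replicate block on the title number it was 5. The pairs of like title number correlated at 0.143 and 0.0908, and those of unlike number at -0.143 and -0.0908. With 2 KO CD4-CD8+ libraries these values are mirror images, so they cannot settle whether a shared number means a shared animal. Leaving out 1 library gave 0 to 1. In KO CD4-CD8+ against WT it was 0 in every alternative, the replicate block included, and 9 to 10 genes were expressed without 1 library, Snrpn passing without any 1 WT library.

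Directions turned as follows, with no call except where stated. In KO CD4+CD8+ against WT, titles 34 to 37 gave 0.028 for Gnas, 0.22 for Impact, 0.075 for Osbpl5 and 0.14 for Ube3a; without KO CD4+CD8+ replicates 3 and 4 they were 0.18, 0.11, 0.014 and 0.0073. Median-ratio scaling, with or without the filter, gave 0.17 for Impact, and the common sum 0.20 for Impact and 0.023 for Osbpl5. In KO CD4-CD8+ against WT, Gnas, H13, Impact and Osbpl5 were -0.11, -0.095, -0.091 and -0.11 after scaling and -0.072, -0.062, -0.065 and -0.077 with the common sum; with the replicate block Gnas was -0.14 and H13 -0.18, and titles 738 to 741 gave -0.10 for Impact and -0.055 for Osbpl5. Leaving out 1 library gave -0.10 to 0.13 for Gnas, -0.10 to 0.18 for H13, -0.30 to 0.32 for Impact and -0.084 to 0.062 for Osbpl5. Between the knockout groups, Igf2r was -0.077 with a pseudocount of 0.1, -1.03 with the title range, and -1.18 and called in titles 738 to 741 (adjusted p = 0.0291) and with the title block (0.00163). Scaling gave 0.26 for Impact, 0.094 for Osbpl5 and 0.33 for Tssc4, the common sum 0.27, 0.10 and 0.33. Without KO CD4+CD8+ replicates 3 and 4, Gnas was 0.17, Impact 0.10, Osbpl5 0.0075 and Tssc4 0.039. Leaving out 1 library gave -0.35 to 0.54 for Igf2r, -0.53 to 0.089 for Impact and -0.30 to 0.021 for Tssc4. Over single genes and comparisons, 18 of 270 values turned, 2 lost and 4 gained a call when 1 library was left out, and 45 of 327 turned, 5 lost and 34 gained one in the other alternatives. The causes were not tested.

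With 1 kb in place of 2 kb, genes with a near peak were 12 in WT 1, 3 in KO 1 and 1 in KO 2, and with 5 kb 7 in KO 2. With equal numbers of peaks KO 1 and KO 2 had 1 each, and peaks of imprinted genes were 54 in WT 1, 32 in KO 1 and 34 in KO 2. Within 100 kb they were 107, 94 and 127.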
